A study of Homo sapiens with 14 samples.

Results

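LNCaP cells given a control siRNA for 24 h were compared with LNCaP cells that were not transfected, using 4 of the 14 arrays of a study of CTCF depletion. LNCaP is an established prostate cancer cell line of human origin that responds to androgen. RNA from each culture was read on Affymetrix Human Gene 2.0 ST arrays. Each of 7 groups has 2 arrays, described as biological duplicates. The arrays were chosen by their titles alone: the 2 named for control siRNA at 24 h and the 2 named for untransfected cells.

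The control siRNA cells had received 20 nM of a pool of non-targeting siRNAs and were collected 24 h later. The untransfected cells received no siRNA, and their labels state no time in culture. Their description codes begin with 72, as do those of the 72 h arrays, and the sources used here do not say what the codes mean. When these cells were collected relative to the 24 h arrays is therefore unknown. The labels name no cells treated with transfection reagent alone, and the reagent used for LNCaP was not given in the sources used here. Neither group was depleted of CTCF. The contrast therefore covers everything that separates these 2 cultures: the siRNA pool, its delivery, the time since plating and the state of the culture cannot be told apart. The other groups enter only where named: control siRNA at 72 h, control siRNA at 144 h (cells split at 72 h and transfected again) and CTCF siRNA at 24 h, all at 20 nM.

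Cells that divide switch on their genes in waves. E2F transcription factors drive the genes of DNA replication before S phase, and a second complex of B-MYB (MYBL2), the MuvB core and FOXM1 drives the genes of mitosis through short promoter elements called CHR. Cells that run short of amino acids, or whose endoplasmic reticulum (ER) holds unfolded protein, switch on a different set, led by the transcription factors ATF4, ATF6 and XBP1. A non-targeting siRNA is meant to have no messenger RNA target, but the delivery of any duplex RNA can touch the sensors of foreign RNA that induce interferon-stimulated genes.

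Values are log2 expression values, and a difference is always control siRNA 24 h minus untransfected, so a difference of 1 is a doubling. Of 16098 probe sets with a gene name, 1218 changed (7.57%) at an adjusted p under 0.05 in limma, 642 higher (3.99%) and 576 lower (3.58%) in control siRNA cells. At least 2-fold changes numbered 186 higher and 102 lower, and at least 4-fold changes 4 higher and 5 lower. The median difference of the changed probe sets was 0.72 among those higher and −0.67 among those lower, against 0.008 over all probe sets tested, and the smallest change called was 0.37. In every one of the 1218, both control siRNA arrays lay on the same side of both untransfected arrays. The test that selected them on these same values largely ensures this, so it adds no separate support. Replicate arrays correlated across probe sets at r = 0.994 in control siRNA cells and 0.992 in untransfected cells, and arrays of different groups at 0.984 to 0.985. With 1 array left out the count of changed probe sets was 554 (control siRNA replicate 1), 306 (control siRNA replicate 2), 537 (untransfected replicate 1) or 587 (untransfected replicate 2), and it was 618 when these 4 arrays were fitted alone. The median standard error (SE) of a difference was 0.145 with 2 arrays a group, and every p-value rests on how far such duplicates lie apart.

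**Figure D1:**
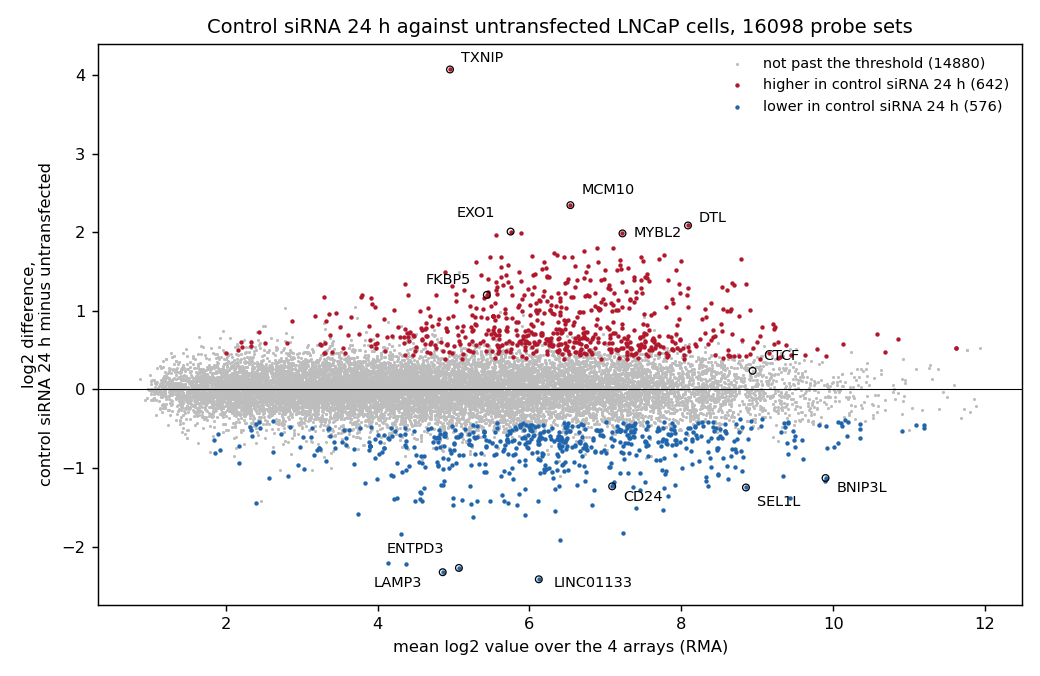
Log2 difference of control siRNA 24 h minus untransfected cells (vertical) against the mean log2 value over the 4 arrays (horizontal) for 16098 probe sets. Red points are the 642 probe sets that were higher, blue points the 576 that were lower and grey points the rest. TXNIP stands alone at the top at 4.07, replication genes such as MCM10 and DTL lie above 2, and LINC01133, LAMP3 and ENTPD3 lie below −2.

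Of 9 measured markers of luminal prostate or LNCaP cells, 1 was lower and 8 did not pass the test, with 4 of the 9 at an unadjusted p under 0.05 (2 higher, 2 lower). Their differences ran from −1.23 to 0.46, with a median of −0.02. FOLH1, the prostate-specific membrane antigen, measured 10.40 and 10.33 in control siRNA cells and 10.62 and 10.75 in untransfected cells. EPCAM, an epithelial adhesion protein, differed by −0.09, the pioneer factor FOXA1 by 0.26 and the keratin KRT18 by −0.02. The marker that passed was CD24, a surface glycoprotein of many epithelial cancers. CD24 measured 6.46 and 6.48 in control siRNA cells, against 7.60 and 7.81 in untransfected cells, a difference of −1.23 ± 0.17 (SE, n = 2 each; limma adjusted p = 0.00168). Of 24 measured markers of basal, stromal, endothelial, immune and neuroendocrine cells, 0 passed limma's test, 0 had an unadjusted p under 0.05, and their differences ran from −0.36 to 0.37.

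The genes of DNA replication were higher in control siRNA cells. Of 54 measured genes on 6 replication lists, 46 were higher and 0 lower (85.2% higher), against 4.09% higher and 3.74% lower over all 14884 genes. The same shares over all genes are the measure for every list count below. Their median difference was 1.20, or 2.29-fold, against 0.008 over all genes, and single genes ran from −0.27 to 2.34. In RNA from a whole culture, more cells in S phase and more RNA per cell cannot be told apart. With 1 array left out the number called was 35 (control siRNA replicate 1), 29 (control siRNA replicate 2), 29 (untransfected replicate 1) or 44 (untransfected replicate 2).

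Origin licensing loads the MCM2 to MCM7 ring, the replicative helicase, onto DNA. All 8 measured licensing genes were higher, with a median difference of 1.35. MCM5 measured 7.29 and 7.30 in control siRNA cells and 5.70 and 5.53 in untransfected cells, a difference of 1.68 ± 0.12 (SE; adjusted p = 0.000229). The groups stood clear of each other by more than the spread within either. The other ring subunits followed, with differences of 1.53 for MCM3, 1.42 for MCM4, 1.42 for MCM2, 1.27 for MCM6 and 1.04 for MCM7. Both loaders were also higher, CDC6 by 1.20 and CDT1 by 0.77. CDT1 lost its call without control siRNA replicate 2 (adjusted p = 0.0589), and CDC6 without either control siRNA array (0.106 and 0.132 for replicates 1 and 2) or untransfected replicate 1 (0.163).

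Helicase activation and origin firing gave 12 of 15 genes higher and a median difference of 1.37. MCM10, which starts the unwinding of loaded origins, measured 7.69 and 7.73 in control siRNA cells, against 5.11 and 5.63 in untransfected cells, a 5.08-fold difference (2.34 ± 0.26, SE; adjusted p = 0.000638). TICRR, which brings the firing factors to origins, measured 8.29 and 8.33 in control siRNA cells and 6.38 and 6.96 in untransfected cells (difference 1.64). The untransfected arrays lay further apart than the control siRNA arrays for both genes, and neither pair overlapped the other. GINS4 and GINS2, subunits of the active helicase, differed by 1.69 and 1.45, and WDHD1, which ties the helicase to the polymerase, by 1.52. A second probe set of GINS4 differed by 0.00 and one of the fork protector CLSPN (1.99 in the set that represents the gene) by 0.73, neither past the test.

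At the fork, PCNA, the sliding clamp, measured 8.65 and 8.62 in control siRNA cells and 7.27 and 7.33 in untransfected cells, a difference of 1.34 ± 0.16 (SE; adjusted p = 0.00103). FEN1, which trims the ends of lagging-strand fragments, rose by 1.39. Supply of deoxynucleotides rose unevenly. TYMS, thymidylate synthase, measured 8.09 and 7.92 in control siRNA cells, against 6.37 and 6.03 in untransfected cells (difference 1.81 ± 0.19, SE; adjusted p = 0.000625), and RRM2, the S-phase subunit of ribonucleotide reductase, rose by 1.63. In contrast DUT, which removes dUTP, measured 4.86 and 4.73 in control siRNA cells and 4.73 and 4.596 in untransfected cells, so that its groups nearly met (difference 0.13, adjusted p = 0.789). In all 6 of 8 genes of this list were higher.

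Checkpoint and repair genes that act at forks gave 10 of 11 higher, with a median difference of 1.37. DTL, which marks replication factors for destruction in S phase, measured 9.14 and 9.12 in control siRNA cells and 6.70 and 7.39 in untransfected cells (difference 2.09 ± 0.22, SE; adjusted p = 0.000619). EXO1, a 5′ exonuclease, rose by 2.01, the helicase BRIP1 by 1.54, RAD54L, which acts in recombination, by 1.42, and the checkpoint kinase CHEK1 by 1.37. BARD1, the partner of BRCA1, was the member that lay below 0, at 8.67 and 8.59 in control siRNA cells and 8.84 and 8.96 in untransfected cells (difference −0.27, adjusted p = 0.304). Factors that rebuild chromatin behind the fork gave 7 of 9 higher. Among these were the histone chaperone ASF1B (1.59), lamin B1, LMNB1 (1.29), the maintenance DNA methyltransferase DNMT1 (1.03) and its guide UHRF1 (0.97).

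The transcription factors of the 2 waves were themselves higher, 10 of 11 measured, with a median difference of 1.12. MYBL2 differed by 1.99. E2F1, which activates replication genes, measured 6.40 and 6.35 in control siRNA cells and 5.19 and 5.14 in untransfected cells (difference 1.21 ± 0.16, SE; adjusted p = 0.00168). E2F7 and E2F8, which repress the same genes later in S phase, differed by 1.69 and 1.70. FOXM1 measured 7.92 and 7.96 in control siRNA cells, against 6.70 and 6.95 in untransfected cells (difference 1.12). Activators and repressors of the programme thus stood higher side by side, without overlap between groups.

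At the entry to S phase, 5 of 10 cyclins and kinases were higher. CDC25A, the phosphatase that activates CDK2, measured 7.24 and 7.15 in control siRNA cells and 5.37 and 5.54 in untransfected cells (difference 1.74 ± 0.18, SE; adjusted p = 0.000619). CDK2 itself rose by 1.23 and CCNE1, cyclin E1, by 0.88. By contrast CDK4, which acts earlier in G1, measured 9.24 and 9.27 in control siRNA cells and 9.18 and 8.91 in untransfected cells, a difference of 0.21 (adjusted p = 0.312). Of 11 measured genes of quiescence and cell cycle arrest, 4 were lower, 1 was higher and 6 did not pass, with 9 differences below 0. The list held 20 genes, and CDKN1A, CDKN1B, CDKN1C, BTG1 and BTG2 were among those not tested. KLHL24 measured 5.94 and 5.92 in control siRNA cells, against 7.01 and 6.93 in untransfected cells (difference −1.04 ± 0.15, SE; adjusted p = 0.00226). CCNG2, an unconventional cyclin linked to arrest, fell by 1.01, and RBL2, the pocket protein of quiescent cells, by 0.53. RBL1, the pocket protein of cycling cells, was the one that rose, by 1.09, and RB1 differed by −0.01. CCNG2 lost its call without control siRNA replicate 1 (adjusted p = 0.0799), untransfected replicate 1 (0.0546) or untransfected replicate 2 (0.0568), RBL1 without control siRNA replicate 2 (0.076) or untransfected replicate 1 (0.0642), and RBL2 without either control siRNA array (0.0842 and 0.0811 for replicates 1 and 2) or either untransfected array (0.0584 and 0.0685).

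The promoters of the replication genes were read for the E2F motif. The window ran from 250 bases before to 50 bases after each RefSeq start site (assembly GRCh38.p14), and the letters searched on both strands were TTTGGCGC, TTTCCCGC, TTTCGCGC and TTTGCCGC. Of the 48 measured replication genes with a promoter in the table, 21 held one (43.8%), against 3.33% of all 27305 promoters. The share counts list members whether or not they changed, so it describes the lists and not the change. Among genes with a promoter, the motif was in 12.4% of those called higher, 5.24% of those called lower and 4.49% of all tested. A match describes the letters only. The stretches shown are of 4 named genes with large increases whose motif lies before the start site, which leaves out EXO1 and CLSPN, where it lies after it. They are read along the strand of the gene, with the motif in capitals. They lie at chr1:212035720-212035747 (plus strand, DTL), chr9:96418371-96418425 (minus strand, ZNF367), chr18:657594-657641 (plus strand, TYMS) and chr3:48188434-48188481 (minus strand, CDC25A).
DTL: atcagagagcgtgacgtcagTTTGGCGC
ZNF367: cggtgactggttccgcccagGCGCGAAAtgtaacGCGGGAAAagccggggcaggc
TYMS: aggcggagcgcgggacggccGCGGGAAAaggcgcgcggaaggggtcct
CDC25A: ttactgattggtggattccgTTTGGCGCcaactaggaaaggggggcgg
In ZNF367, a zinc-finger gene, the motif stood on the opposite strand at both places, as it did in TYMS. ZNF367 measured 6.63 and 6.46 in control siRNA cells and 4.69 and 4.45 in untransfected cells, a difference of 1.97 ± 0.17 (SE; adjusted p = 0.000229).

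**Figure D2:**
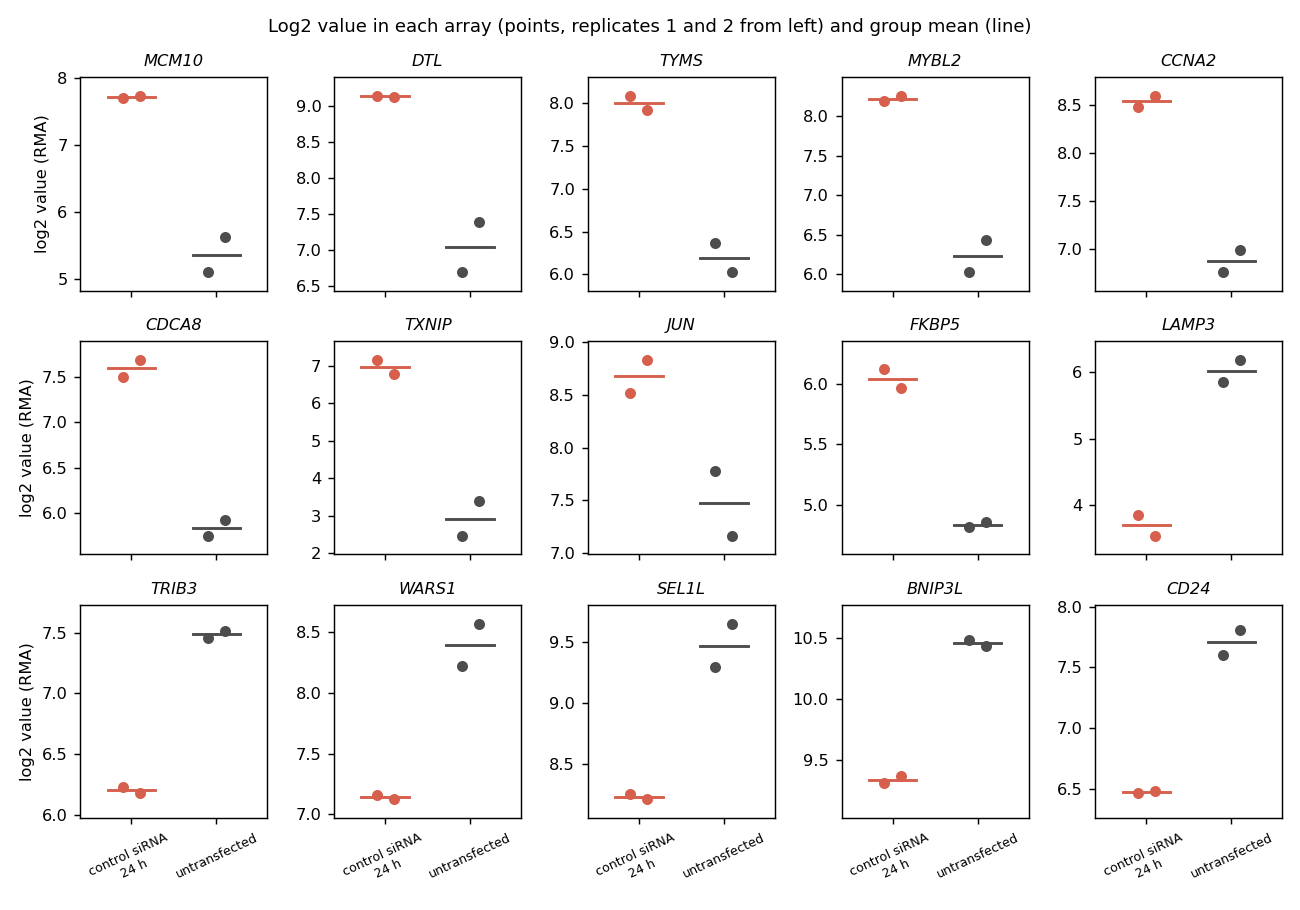
Log2 value in each array (points) and group mean (line) for 15 genes, with control siRNA 24 h left of untransfected cells in each panel and each panel on its own log2 axis. The replication and mitosis genes, TXNIP, JUN and FKBP5 stand higher in control siRNA cells, and LAMP3, TRIB3, WARS1, SEL1L, BNIP3L and CD24 stand lower, with no overlap in any panel.

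The genes of mitosis were higher as well. Of 71 measured genes on 5 mitosis lists, 65 were higher and 0 lower (91.5% higher), with a median difference of 1.23, or 2.35-fold, and a range from −0.004 to 1.77. With 1 array left out the count was 52 and 18 for the control siRNA arrays (replicates 1 and 2) and 26 and 58 for the untransfected arrays (replicates 1 and 2), while no difference among the named genes that were called changed sign.

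Of mitotic cyclins and kinases, 18 of 19 were higher. CCNA2, cyclin A2, measured 8.48 and 8.59 in control siRNA cells and 6.76 and 6.99 in untransfected cells (difference 1.66 ± 0.23, SE; adjusted p = 0.00188). PLK1, the kinase that drives entry into and progress through mitosis, measured 9.52 and 9.70 in control siRNA cells, against 7.90 and 8.02 in untransfected cells (difference 1.66). AURKB, the kinase of the chromosomal passenger complex, rose by 1.64 and its partner CDCA8 (borealin) by 1.77. Among the motors and the spindle all 17 genes were higher, KIF23 and KIF20A, which act in cytokinesis, by 1.55 and 1.52. All 19 kinetochore and centromere genes were higher too. HJURP, which deposits the centromeric histone, measured 8.17 and 8.44 in control siRNA cells and 6.21 and 7.03 in untransfected cells (difference 1.68 ± 0.24, SE; adjusted p = 0.00193).

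MKI67, the gene of the proliferation marker Ki-67, measured 9.27 and 9.42 in control siRNA cells and 7.88 and 8.10 in untransfected cells, a 2.56-fold difference (1.35 ± 0.23, SE; adjusted p = 0.0051). It lost its call without control siRNA replicate 2 (adjusted p = 0.0737) or untransfected replicate 1 (0.0591). ESPL1, separase, which cuts cohesin at anaphase, rose by 1.31. CDC20, the mitotic activator of the anaphase promoting complex, measured 8.82 and 8.80 in control siRNA cells, against 7.10 and 7.26 in untransfected cells (difference 1.63 ± 0.16, SE; adjusted p = 0.000512). Its subunit CDC27 measured 8.40 and 8.48 in control siRNA cells and 8.39 and 8.497 in untransfected cells (difference −0.00), and the G1 activator FZR1 differed by 0.12 (adjusted p = 0.699).

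The CHR element of mitotic promoters was searched as TTTGAA and TTCGAA on both strands of the same window. It was found in 44 of the 62 measured mitosis genes with a promoter (71.0%), against 16.6% of all promoters. This share too counts list members whether or not they changed. Among genes with a promoter, the element was in 27.7% of those called higher, 13.6% of those called lower and 13.2% of all tested. The E2F motif was in 11.3% of these mitosis promoters, and the CHR element in 12.5% of the replication promoters. The 2 stretches shown, chosen after their values were seen, are of genes named above and lie at chr1:37692473-37692515 (plus strand, CDCA8) and chr2:233854621-233854666 (minus strand, HJURP). Capitals mark the CHR element.
CDCA8: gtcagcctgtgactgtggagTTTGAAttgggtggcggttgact
HJURP: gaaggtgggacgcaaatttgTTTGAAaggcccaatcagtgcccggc

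**Figure D3:**
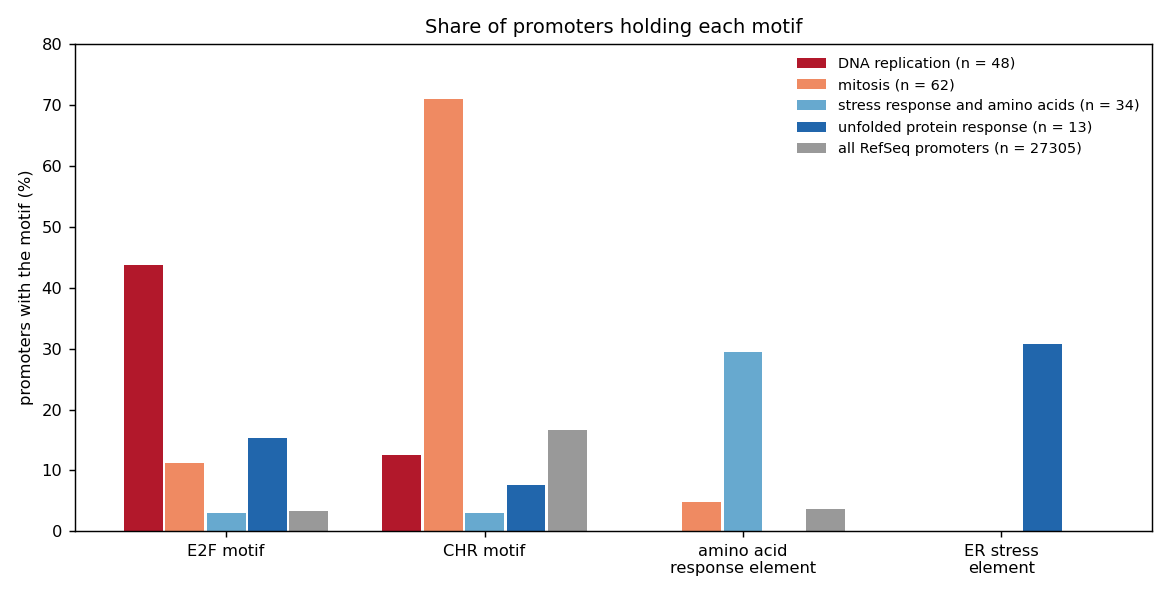
Share of promoters in percent (vertical, from 0) that hold each motif (horizontal), for the measured genes of 4 groups of lists and for all 27305 RefSeq promoters (grey). List genes count whether or not they changed. The E2F motif is in 43.8% of replication promoters, the CHR element in 71.0% of mitosis promoters and the ER stress element in 30.8% of unfolded protein response promoters.

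Genes of the amino acid and integrated stress response were lower in control siRNA cells. Of 41 measured genes of 3 lists, namely ATF4 targets, amino acid synthesis and cytosolic aminoacyl-tRNA synthetases, 18 were lower (43.9%) and 1 higher. Their median difference was −0.45, against 0.008 over all genes. With 1 array left out the count of lower genes was 9 (control siRNA replicate 1), 5 (control siRNA replicate 2), 8 (untransfected replicate 1) or 9 (untransfected replicate 2).

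GDF15, a secreted stress cytokine, measured 9.24 and 9.39 in control siRNA cells, against 10.76 and 10.19 in untransfected cells (difference −1.16 ± 0.18, SE; adjusted p = 0.0036). STC2, a secreted glycoprotein induced by ER stress, measured 7.19 and 7.30 in control siRNA cells and 8.38 and 8.27 in untransfected cells (difference −1.08). Both kept their call with any 1 array left out. ASNS, asparagine synthetase, measured 8.02 and 7.89 in control siRNA cells and 8.64 and 8.86 in untransfected cells (difference −0.79 ± 0.13, SE; adjusted p = 0.00438, and 0.0676 without control siRNA replicate 2). TRIB3, a pseudokinase that damps the response, was lower by the largest amount on the list, −1.28, but its adjusted p of 0.0267 became 0.0974 and 0.174 without control siRNA replicates 1 and 2, and 0.126 and 0.109 without untransfected replicates 1 and 2.

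In amino acid synthesis 5 of 10 genes were lower and 1 higher. PCK2, mitochondrial PEP carboxykinase, differed by −1.23 and CTH, which makes cysteine from cystathionine, by −1.26. CTH measured 5.28 and 5.34 in control siRNA cells and 6.43 and 6.72 in untransfected cells, and its adjusted p of 0.00485 became 0.0506 without control siRNA replicate 2 and 0.0504 without untransfected replicate 2. The gene that went up was SHMT1, the cytosolic serine hydroxymethyltransferase, which feeds one-carbon units to thymidylate synthesis. SHMT1 measured 6.78 and 6.68 in control siRNA cells, against 6.06 and 5.95 in untransfected cells (difference 0.72 ± 0.11, SE; adjusted p = 0.00295). Its mitochondrial counterpart SHMT2 measured 6.09 and 6.06 in control siRNA cells and 6.88 and 6.70 in untransfected cells (difference −0.72, adjusted p = 0.034). The SHMT2 call was lost with any 1 array left out, at 0.116 and 0.2 for control siRNA replicates 1 and 2, and 0.199 and 0.0683 for untransfected replicates 1 and 2.

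Of the tRNA synthetases, which charge tRNAs with amino acids, 6 of 17 were lower and 0 higher. SARS1, for serine, measured 8.17 and 8.27 in control siRNA cells and 9.17 and 9.25 in untransfected cells (difference −0.99 ± 0.14, SE; adjusted p = 0.00216). WARS1, for tryptophan, measured 7.15 and 7.12 in control siRNA cells and 8.22 and 8.57 in untransfected cells (difference −1.26), although a second WARS1 probe set differed by −0.44 without passing the test.

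The letters TGATGNAA of the amino acid response element, at which ATF4 and its partners are known to bind, were in the promoters of 10 of 34 genes of these lists (29.4%), against 3.67% of all promoters. Among the 10, ASNS, NARS1 and IARS1 were called lower. ATF3 lay 0.66 higher without passing, and the rest lay lower without passing. The element was in 3.10% of promoters of genes called lower, 2.24% of those called higher and 2.24% of those of all tested genes. Of the called genes named here that hold it, ASNS (chr7:97872449-97872496, minus strand) and IARS1 (chr9:92293698-92293730, minus strand), the isoleucine synthetase, are shown with the element in capitals. In IARS1 it stands on the opposite strand.
ASNS: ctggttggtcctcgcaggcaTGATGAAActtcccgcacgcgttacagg
IARS1: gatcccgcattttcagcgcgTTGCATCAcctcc
IARS1 measured 9.82 and 9.97 in control siRNA cells and 10.23 and 10.42 in untransfected cells, a difference of −0.43 (adjusted p = 0.0455). With 1 array left out it did not pass (0.191 and 0.187 for control siRNA replicates 1 and 2, and 0.116 and 0.19 for untransfected replicates 1 and 2).

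The unfolded protein response and its ER chaperones lay lower as well. Of 15 measured genes, 7 were lower and 0 higher (46.7% lower), and all 15 differences were negative, with a median of −0.72 and a range from −1.25 to −0.14. In each of the 15, both control siRNA arrays lay below both untransfected arrays. The share of all genes that separate in this way was not counted. The 15 were also read on the same arrays and are not independent of each other, so the count adds no separate support. ATF6, the membrane-held transcription factor that is cut loose in ER stress, measured 8.26 and 8.33 in control siRNA cells and 8.99 and 9.12 in untransfected cells (difference −0.76 ± 0.13, SE; adjusted p = 0.00485). ERN1, the sensor IRE1 that splices XBP1, measured 5.75 and 5.71 in control siRNA cells, against 6.57 and 6.81 in untransfected cells (difference −0.96, adjusted p = 0.00914). SEL1L, the adaptor of ER-associated degradation, measured 8.25 and 8.21 in control siRNA cells and 9.29 and 9.65 in untransfected cells (difference −1.25 ± 0.32, SE; adjusted p = 0.0395). Of the named genes, ATF6 kept its call with any 1 array left out. The adjusted p of ERN1 was 0.102 without control siRNA replicate 2 and 0.0699 without untransfected replicate 2. That of SEL1L was 0.107 and 0.236 without control siRNA replicates 1 and 2, and 0.127 and 0.178 without untransfected replicates 1 and 2. The count on the list was 2, 2, 3 and 2 with the same arrays left out in that order.

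The ER stress element, a CCAAT box and a CCACG box 9 bases apart, at which ATF6 and the factor NF-Y are known to bind, was in 4 of the 13 promoters of this list (30.8%), those of CALR, CANX, XBP1 and CRELD2, and in 0.0806% of all promoters. Of these genes CALR alone passed. CANX (−0.41), XBP1 (−0.47) and CRELD2 (−0.72) lay lower without passing (limma adjusted p = 0.0681, 0.105 and 0.0592). The CALR stretch (chr19:12938364-12938422, plus strand) is shown with the element in capitals, where it stands on the opposite strand. CALR, calreticulin, falls outside the rule by which genes were named and was chosen after its values were seen. It measured 10.96 and 10.96 in control siRNA cells and 11.42 and 11.48 in untransfected cells (difference −0.49, adjusted p = 0.0297), and it lost its call without control siRNA replicates 1 and 2 (0.133 and 0.161) or untransfected replicates 1 and 2 (0.1002 and 0.137).
CALR: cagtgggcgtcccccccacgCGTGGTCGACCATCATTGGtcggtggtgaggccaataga

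**Figure D4:**
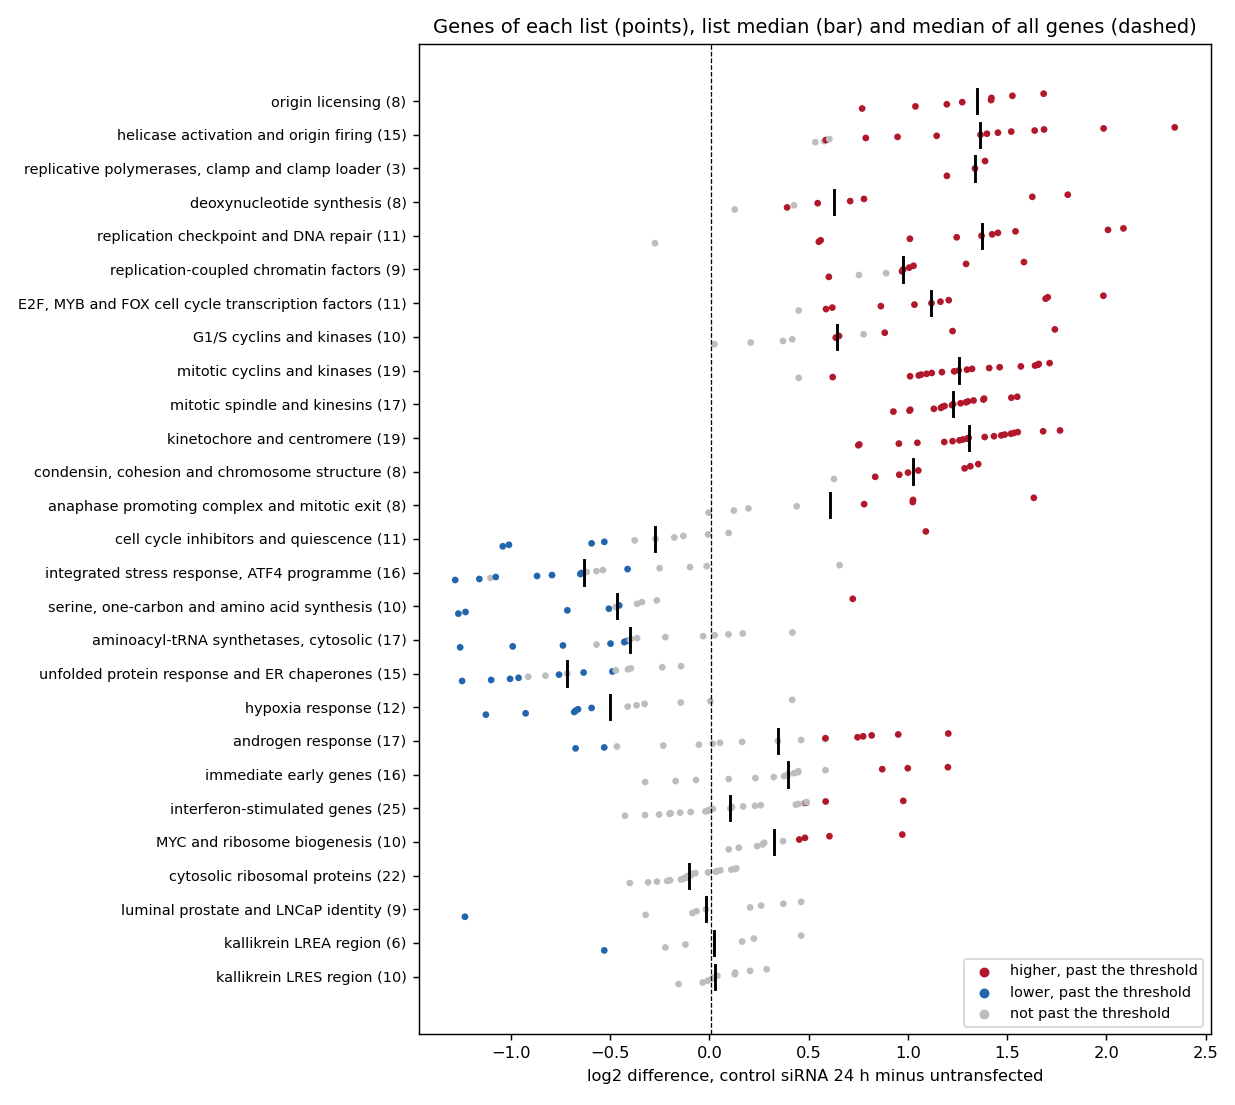
Log2 difference of control siRNA 24 h minus untransfected cells (horizontal) for every measured gene (point) of 27 lists, with the list median (bar) and the median of all genes (dashed line) and the number measured in parentheses. Red points passed the test as higher, blue as lower, and grey did not pass. The replication and mitosis lists lie to the right at medians of 0.61 to 1.37, whereas the stress, unfolded protein response and hypoxia lists lie to the left.

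Genes of the hypoxia response gave 6 of 12 lower and 0 higher (50% lower, against 3.74% over all genes), with a median of −0.50. BNIP3L, a receptor for the removal of mitochondria, measured 9.31 and 9.37 in control siRNA cells and 10.49 and 10.44 in untransfected cells (difference −1.13 ± 0.13, SE; adjusted p = 0.000686). Its relative BNIP3 measured 9.74 and 9.71 in control siRNA cells, against 10.48 and 10.33 in untransfected cells (difference −0.68, adjusted p = 0.00506). Other targets of the hypoxia factor HIF did not pass, such as ADM, adrenomedullin, at 3.60 and 4.05 in control siRNA cells and 3.66 and 3.97 in untransfected cells, and EGLN3 (difference −0.14). Glycolysis gave 1 of 8 genes lower, the hexokinase HK2 (−0.62, adjusted p = 0.019), while LDHA differed by −0.18 and GAPDH by 0.05. HK2 lost its call without control siRNA replicate 1 (0.171) or untransfected replicate 1 (0.143). The hypoxia count was 5, 2, 4 and 4 without control siRNA replicates 1 and 2 and untransfected replicates 1 and 2 in turn, and 3 when these 4 arrays were fitted alone.

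TXNIP, the thioredoxin-interacting protein, which curbs glucose uptake and is induced when glucose is plentiful, had the largest difference of any probe set. It measured 7.18 and 6.80 in control siRNA cells and 2.45 and 3.38 in untransfected cells, a 16.8-fold difference (4.07 ± 0.91, SE; adjusted p = 0.0198). Its groups were far apart, whereas duplicates of other groups in the same fit scattered, at 5.24 and 3.46 in control siRNA cells at 72 h and 3.47 and 6.72 at 144 h. The adjusted p was 0.133 and 0.0945 without control siRNA replicates 1 and 2, and 0.125 and 0.0722 without untransfected replicates 1 and 2. A second TXNIP probe set differed by 0.81 (adjusted p = 0.292). ARRDC4, the paralog that shares its control by glucose, measured 6.75 and 6.52 in control siRNA cells and 5.46 and 5.61 in untransfected cells (difference 1.098, adjusted p = 0.0483), and it too lost its call without either control siRNA array (0.266 and 0.12 for replicates 1 and 2) or either untransfected array (0.176 and 0.165). Of the 8 others on that list, 0 passed limma's test and 0 had an unadjusted p under 0.05, ARRDC3 lying at 8.21 and 8.73 in control siRNA cells and 8.42 and 8.32 in untransfected cells.

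Immediate early genes, which answer serum and stress within minutes, gave 3 of 16 higher (18.8%, against 4.09% over all genes) and a median difference of 0.40. JUN measured 8.51 and 8.83 in control siRNA cells, against 7.78 and 7.16 in untransfected cells (difference 1.20 ± 0.21, SE; adjusted p = 0.00593). KLF10 rose by 0.9997 and KLF6 by 0.87. JUN lost its call without control siRNA replicate 2 (0.0844) or untransfected replicate 2 (0.0561), KLF6 without control siRNA replicate 2 (0.12) or untransfected replicate 2 (0.104), and KLF10 without control siRNA replicate 1 (0.0761) or untransfected replicate 1 (0.0641). SNAI2, the repressor Slug, kept its call throughout and measured 6.73 and 6.23 in control siRNA cells and 5.00 and 4.58 in untransfected cells (difference 1.69 ± 0.27, SE; adjusted p = 0.00395).

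Androgen-responsive genes divided, with 6 of 17 higher and 2 lower (35.3% and 11.8%, against 4.09% and 3.74% over all genes). FKBP5, a co-chaperone of the androgen and glucocorticoid receptors, measured 6.12 and 5.96 in control siRNA cells and 4.82 and 4.86 in untransfected cells (difference 1.20 ± 0.13, SE; adjusted p = 0.000619). HPGD, which breaks down prostaglandins, measured 5.54 and 5.90 in control siRNA cells, against 4.70 and 4.83 in untransfected cells (difference 0.95), and the zinc-finger gene ZBTB10 rose by 0.82. KLK3, the gene of prostate-specific antigen and a classic androgen target, measured 8.15 and 8.20 in control siRNA cells and 7.86 and 7.57 in untransfected cells and did not pass (difference 0.46, adjusted p = 0.175). KLK4 measured 9.31 and 9.09 in control siRNA cells and 9.84 and 9.62 in untransfected cells, a difference of −0.53 (adjusted p = 0.0274), and lost its call without either control siRNA array (0.0612 and 0.217 for replicates 1 and 2) or either untransfected array (0.17 and 0.0515). The study examined the kallikrein locus, whose active region (LREA) thus gave 1 of 6 genes lower. In its silenced region (LRES) 0 of 10 passed limma's test and 0 had an unadjusted p under 0.05, and differences ran from −0.16 to 0.29.

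Interferon-stimulated genes differed little. Of 25 measured, 3 were higher and 0 lower (12% higher, against 4.09% over all genes), with a median difference of 0.11. IFIT2, an antiviral protein that binds RNA, measured 4.18 and 3.701 in control siRNA cells and 3.05 and 2.87 in untransfected cells (difference 0.98 ± 0.13, SE; adjusted p = 0.00148). IFIT1, its neighbour, measured 3.60 and 3.18 in control siRNA cells and 2.91 and 2.89 in untransfected cells and did not pass (difference 0.49, adjusted p = 0.344). The other 2 were USP18 (0.59) and OASL (0.49). USP18 lost its call without either control siRNA array (0.0684 and 0.0888 for replicates 1 and 2) or untransfected replicate 2 (0.0879), and OASL without either control siRNA array (0.247 and 0.0706) or either untransfected array (0.13 and 0.122).

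Among 7 sensors of double-stranded RNA, 1 passed and was lower. TLR3, the endosomal sensor, measured 4.63 and 4.56 in control siRNA cells, against 5.87 and 5.79 in untransfected cells (difference −1.23 ± 0.20, SE; adjusted p = 0.0039). The cytosolic sensors RIGI and IFIH1 differed by 0.12 and −0.12, and the kinase PKR, EIF2AK2, by −0.32. Of 6 genes of the RNA interference machinery, TNRC6A, a GW182 scaffold of silencing complexes, was higher, at 7.19 and 7.06 in control siRNA cells and 6.38 and 6.41 in untransfected cells (difference 0.73 ± 0.12, SE; adjusted p = 0.00434). Its paralogs TNRC6B and TNRC6C differed by −0.18 and 0.17.

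CTCF, the target of the study's other siRNA, measured 9.001 and 9.11 in control siRNA cells and 8.85 and 8.78 in untransfected cells (difference 0.24 ± 0.17, SE; adjusted p = 0.485). Of 11 genes of CTCF and cohesin, the ring that stops at CTCF sites, 2 were higher, SMC1A by 0.54 and the release factor WAPL by 0.40. Both lost their call with any 1 array left out, SMC1A at 0.126, 0.206, 0.148 and 0.125 and WAPL at 0.208, 0.131, 0.115 and 0.149 without control siRNA replicates 1 and 2 and untransfected replicates 1 and 2 in turn.

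Growth-related lists moved less than the cell cycle. Of 10 genes of ribosome biogenesis, 4 were higher, led by LYAR, a nucleolar protein, at 6.76 and 6.59 in control siRNA cells and 5.76 and 5.65 in untransfected cells (difference 0.97). MYC itself measured 8.67 and 8.74 in control siRNA cells and 8.72 and 8.49 in untransfected cells, overlapping (difference 0.10). Of 22 cytosolic ribosomal proteins 0 passed limma's test, with 3 at an unadjusted p under 0.05, and of 7 respiratory chain subunits 0 passed, with 2 at an unadjusted p under 0.05. p53 targets gave 1 of 10 lower and targets of YAP 0 of 8, with 2 YAP targets at an unadjusted p under 0.05. The cholesterol list held 1 higher and 1 lower of 14. Its lower gene, STARD4, a carrier of cholesterol between membranes, measured 6.67 and 6.85 in control siRNA cells and 7.67 and 7.97 in untransfected cells (difference −1.06 ± 0.18, SE; adjusted p = 0.00485). Metallothioneins gave 2 of 7 lower, heat shock chaperones 1 of 6 higher, oxidative stress genes 1 of 4 lower, autophagy and lysosome genes 2 of 17 lower, and fatty acid synthesis 1 of 10 in each direction. Over all genes 4.09% were higher and 3.74% lower. In lists this small, counts of 1 or 2 cannot be told from those shares. Replication-dependent histones and amino acid transporters were not analysed here.

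The largest decreases fell mostly outside the lists. LINC01133, a long non-coding RNA, measured 4.59 and 5.25 in control siRNA cells, against 7.20 and 7.46 in untransfected cells (difference −2.41 ± 0.20, SE; adjusted p = 0.000229). LAMP3, a lysosomal membrane protein that ER stress induces, measured 3.86 and 3.54 in control siRNA cells and 5.85 and 6.19 in untransfected cells (difference −2.32). SPIRE1, which nucleates actin filaments, measured 7.01 and 6.99 in control siRNA cells and 8.60 and 8.46 in untransfected cells (difference −1.53 ± 0.13, SE; adjusted p = 0.000229). In each the gap between the groups was wider than that between replicates. Also lower were CADPS2, which primes dense-core vesicles (−1.47), the kinase CAMK1D (−1.47), NUCB2, the precursor of nesfatin (−1.46), CMKLR2, a chemerin receptor (−1.58), TCP11L2 (−1.45) and BEX2 (−1.41), all of which kept their call with any 1 array left out. ADRA2A, the alpha-2A adrenergic receptor, fell by 1.603 but did not pass without control siRNA replicate 2 (0.0633) or untransfected replicate 2 (0.0683). GTPBP2, a GTPase that rescues stalled ribosomes, fell by 1.54 but did not pass without control siRNA replicate 2 (0.0983) or untransfected replicate 1 (0.066).

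Few microRNA genes changed, and the median difference over 1236 microRNA probe sets was −0.01. Of these 40 passed, 9 higher (0.728%) and 31 lower (2.51%), both below the shares over all probe sets (3.99% higher and 3.58% lower). A probe set over a hairpin also takes up the transcript around it, and hairpin and host cannot be told apart. MIRLET7C measured 5.25 and 5.55 in control siRNA cells and 6.93 and 6.70 in untransfected cells (difference −1.42), and MIR99A, from the same host transcript, 5.86 and 6.08 in control siRNA cells and 6.82 and 7.02 in untransfected cells (difference −0.95). The host itself, MIR99AHG, differed by −0.52. MIR3189, which lies inside GDF15, measured 4.62 and 4.29 in control siRNA cells and 6.22 and 5.92 in untransfected cells (difference −1.62). MIR148A and MIR148B were both lower, by 0.81 and 1.01 on the log2 scale, whereas MIR193A and MIR193B were both higher, by 0.87 and 0.56. Their values were low. MIR148A measured 1.58 and 1.32 in control siRNA cells and 2.28 and 2.24 in untransfected cells. By mean over all arrays MIR148A lay at percentile 3.40 of the probe sets tested, MIR148B at 18.6, MIR193A at 17.0 and MIR193B at 35.2. MIRLET7C and MIR99A kept their call with any 1 array left out. MIR148A lost it without any 1 (adjusted p from 0.0906 to 0.182), and MIR3189 (up to 0.0749), MIR148B (up to 0.1002), MIR193A (up to 0.0942), MIR193B (up to 0.341) and MIR99AHG (up to 0.202) without at least 1. The mature sequences of these, chosen after their values were seen, are given from RefSeq with the seed (bases 2 to 8) in capitals. The members of each of the last pairs share a seed, but whether the mature microRNAs changed was not tested.
hsa-let-7c-5p: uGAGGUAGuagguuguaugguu
hsa-miR-99a-5p: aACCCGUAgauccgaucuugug
hsa-miR-148a-3p: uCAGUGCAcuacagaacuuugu
hsa-miR-148b-3p: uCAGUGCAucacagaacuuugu
hsa-miR-193a-3p: aACUGGCCuacaaagucccagu
hsa-miR-193b-3p: aACUGGCCcucaaagucccgcu

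The other siRNA groups show how these genes stood later and with a different pool. Each of the following differences is against the same 2 untransfected arrays and so shares them. The median over the replication lists was 1.20 at 24 h, 0.73 at 72 h and 0.98 at 144 h of control siRNA, and 1.18 at 24 h of CTCF siRNA. For mitosis the medians were 1.23, 0.76 and 1.14 at the 3 times and 1.22 for CTCF siRNA at 24 h. The unfolded protein response lay at −0.72, −0.57 and −0.98, and at −0.86 with CTCF siRNA. The hypoxia list lay at −0.50, −0.21 and −0.09, and at −0.37 with CTCF siRNA. FKBP5 differed by 1.20 at 24 h, 0.47 at 72 h and 0.49 at 144 h, and by 1.17 with CTCF siRNA at 24 h. JUN differed by 1.20 at 24 h, −0.03 at 72 h and −0.01 at 144 h, and by 1.38 with CTCF siRNA at 24 h.

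Control siRNA at 24 h was then set directly against control siRNA at 72 h, a test that needs no untransfected array. It called 24 probe sets (0.149%), 9 higher and 15 lower at 24 h, with 1958 at an unadjusted p under 0.05. Of these 24, 22 had also changed against untransfected cells. Both tests use the same control siRNA 24 h arrays, which favours such an overlap, so it adds no separate support. Of the replication and mitosis genes 0 were among the 24 probe sets called in limma. The median difference between 24 h and 72 h was 0.45 over both the replication and the mitosis lists. The count was 0 in limma without either 24 h array or either 72 h array (1261 to 1830 at an unadjusted p under 0.05), 0 with the CTCF siRNA arrays left out of the fit (1792 at an unadjusted p under 0.05) and 159 with these 4 arrays alone.

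CD24 measured 6.46 and 6.48 at 24 h and 7.73 and 7.63 at 72 h (difference −1.21). CCNG2 measured 5.54 and 5.82 at 24 h and 6.73 and 6.92 at 72 h (difference −1.14). INSIG2, which holds back sterol synthesis, measured 7.26 and 7.02 at 24 h and 8.01 and 8.06 at 72 h, and 8.496 and 8.4996 in untransfected cells. In CD24 and CCNG2 the 72 h and untransfected arrays lay together, whereas in INSIG2 the 72 h arrays lay between the others. GEM, a small GTPase, measured 4.31 and 4.49 at 24 h and 3.18 and 3.10 at 72 h (difference 1.26). ZBTB10 measured 7.998 and 7.91 at 24 h and 6.89 and 6.95 at 72 h (difference 1.04, adjusted p = 0.0095, the lowest of the 24). ATF3, a stress-induced transcription factor, measured 7.16 and 7.28 at 24 h and 5.47 and 5.97 at 72 h (difference 1.498, adjusted p = 0.0276), and 6.38 and 6.75 in untransfected cells, from which the 24 h arrays did not differ past the threshold (0.66, adjusted p = 0.0727).

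**Figure D5:**
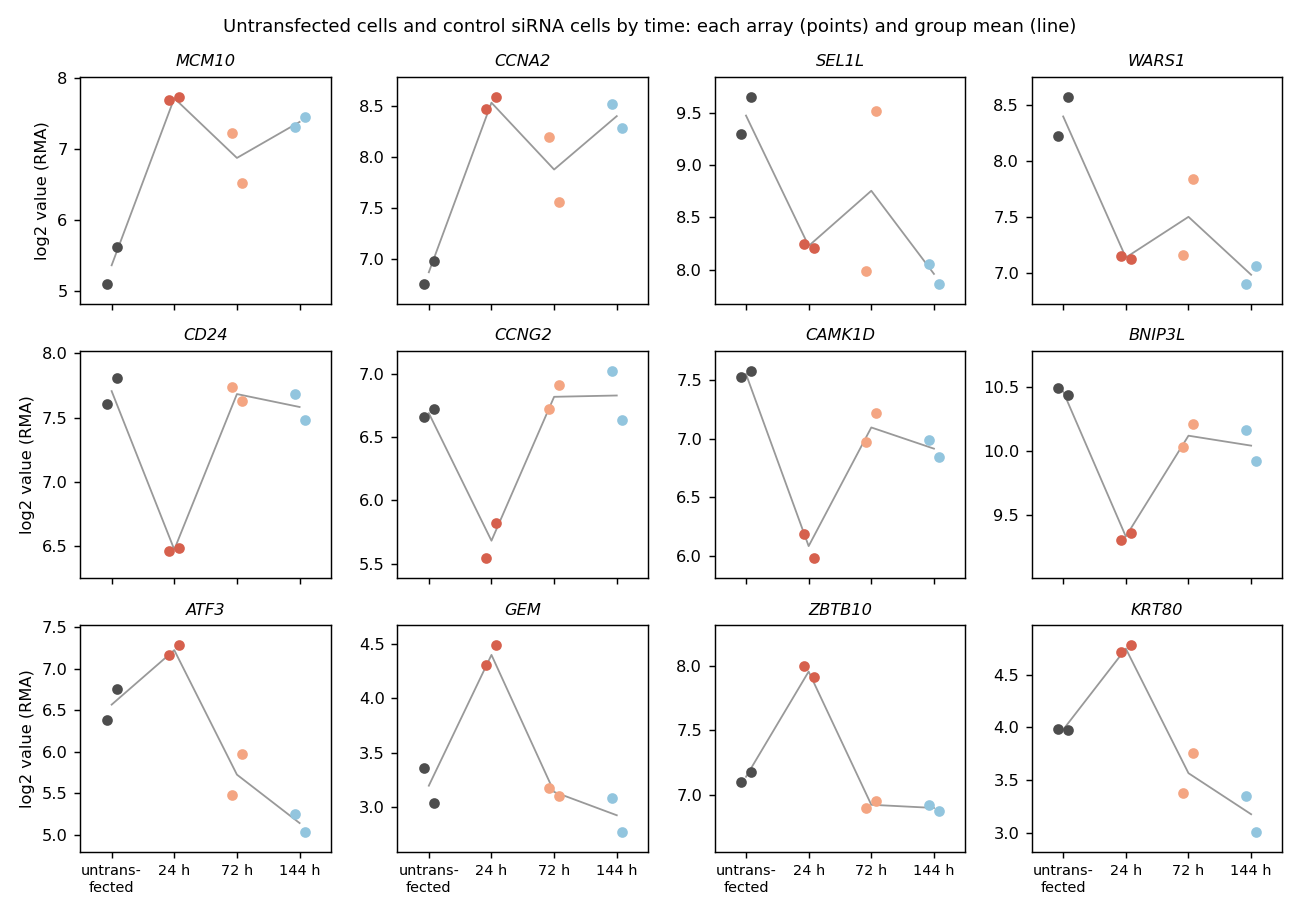
Log2 value in each array (points) and group mean (line) of 12 genes in untransfected cells and at 24, 72 and 144 h of control siRNA, each panel on its own log2 axis. MCM10 and CCNA2 stand above the untransfected arrays at all 3 times, CD24 and CCNG2 dip at 24 h, and ATF3, GEM, ZBTB10 and KRT80 peak there.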

How the data were processed

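The deposited log2 values had been made by the authors in R 3.2.5 from Affymetrix scanner files, with background correction, quantile normalisation and median polish (RMA). Scanner files were not used here, and how far a value lies above background is unknown. Array medians ran from 3.67 to 3.72. The platform annotation named exactly 1 gene for 16098 of 53617 probe sets, and the other 37519 entered only 1 alternative.

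Groups were taken from the array titles. All 14 arrays were fitted in limma 3.58.1 (R 4.3.3; lmFit, eBayes, two-sided) with a term for each of 7 groups and a fixed replicate block after the study's methods, and p-values were adjusted over the named probe sets (Benjamini-Hochberg, threshold 0.05). The same code was tested on simulated data. In lists a gene was represented by its brightest probe set, by mean over the arrays, and lists are given by counts and medians. Named are the 20 probe sets a direction with the largest change of the same sign in both replicate numbers (microRNAs apart), up to 6 called members of a list, every member of lists with 12 or fewer measured, the markers, CTCF and 6 a direction between 24 h and 72 h. The members and the lists were chosen with earlier results of these data known. Alternatives left out the block, single arrays or the CTCF siRNA arrays, fitted 4 arrays alone, tested all rows or the brighter probe sets, centred or normalised again, or added a mean-variance trend. Promoters and microRNAs came from RefSeq tables of GRCh38.p14.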

Additional observations from a re-analysis of the deposited data

Results flagged for a closer look

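Control siRNA cells at 24 h differed from control siRNA cells at 72 h at 24 probe sets in a direct limma test, and each is a result whose contrast with untransfected cells differs between the times. Adjusted p ran from 0.0095 to 0.0482. Lower at 24 h, as log2 differences of 24 h minus 72 h, were the read-through transcript C1QTNF3-AMACR (−1.30), CD24 (−1.21), CCNG2 (−1.14), TBX10 (−1.09), MIR30A (−1.08) and the kinase CAMK1D (−1.01). Below 1 in size were the decreases of the guidance ligand SLIT1 (−0.96), TMEM116 (−0.91), INSIG2 (−0.89), the sestrin SESN3 (−0.83), the insulin receptor adaptor GRB10 (−0.79), GTF2IRD2 (−0.79), the mitophagy receptor BNIP3L (−0.78), the Golgi protein GOLPH3L (−0.78) and DPY19L3 (−0.66). Higher at 24 h were ATF3 (1.498), GEM (1.26), the keratin KRT80 (1.18), ZBTB10 (1.04), CROT of peroxisomal fatty acid oxidation (1.01), the extracellular chaperone CLU (0.98), HPGD (0.84), the phosphatase DUSP2 (0.73) and the ephrin EFNA5 (0.72). All 24 calls were lost without any 1 of the 24 h or 72 h arrays of control siRNA.

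CROT measured 8.14 and 7.83 in control siRNA cells at 24 h and 7.07 and 6.88 at 72 h, and 6.25 and 6.54 in untransfected cells. CLU measured 5.10 and 4.89 at 24 h and 4.16 and 3.89 at 72 h, and 3.81 and 3.79 in untransfected cells. KRT80 measured 4.71 and 4.78 at 24 h and 3.38 and 3.76 at 72 h, and 3.98 and 3.98 in untransfected cells. In each of these the 24 h arrays stood above all 4 others. All of them were called higher at 24 h in both tests, which largely ensures this, so it adds no separate support.

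Among the rows that carry no gene name here, 516 passed the threshold for control siRNA 24 h against untransfected cells when all 53617 rows were tested together. They are outside every comparison above.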

How the results depend on the processing

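Of 176 named probe sets that changed against untransfected cells, 84 kept their call with any 1 of the 4 arrays left out and 92 lost it without at least 1, and none changed sign under any alternative. With 1 array left out the 1218 changed probe sets became 306 to 587, the 46 replication genes 29 to 44, the 65 mitosis genes 18 to 58, the 18 lower stress and amino acid genes 5 to 9, the 7 unfolded protein response genes 2 to 3, the 6 hypoxia genes 2 to 5, and the 24 calls of 24 h against 72 h 0 in every case. The 4 arrays of a comparison fitted alone gave 618 (350 higher, 268 lower) and, for 24 h against 72 h, 159, and 3 hypoxia genes. Without the CTCF siRNA arrays there were 370 lower probe sets against 576, 11 stress and amino acid genes, 4 unfolded protein response genes and 0 calls between 24 h and 72 h. All rows tested together gave 9, 4 and 4 for these 3 counts. Between 24 h and 72 h the brighter probe sets gave 55 calls and a mean-variance trend 97, and with the trend 11 unfolded protein response genes were lower. Where fewer arrays gave fewer calls, the cause was not tested further.

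The study's methods treat the replicates of the time course as paired. Deviations of same-numbered arrays of control siRNA 24 h and untransfected cells correlated at r = −0.065 across probe sets, and over the 21 pairs of groups at −0.086 to 0.228, with 2 over 0.1. Titles number the replicates alike in all groups, and the block follows the titles. The description codes of the 24 h arrays, however, end in different numbers from those of the untransfected, 72 h and 144 h arrays. Whether the replicate numbers pair these cultures could not be established. Without the replicate block 1246 probe sets changed against untransfected cells and 28 between 24 h and 72 h. The number of arrays and the unknown distance from background limit what a low value can show.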

Other observations

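Few long non-coding RNA probe sets were called higher, and the share called lower was near that over all probe sets. Of 1595 long non-coding probe sets 6 were higher (0.376%) and 54 lower (3.39%), against 3.99% and 3.58% over all tested. Of 12695 protein-coding probe sets 614 were higher (4.84%) and 474 lower (3.73%). Long non-coding probe sets also had low values, with a median level of 3.34 over all arrays, against 5.22 for protein-coding ones. Whether the classes differ was not tested. PCNA-AS1, antisense to PCNA, measured 6.47 and 6.32 in control siRNA cells and 5.41 and 5.24 in untransfected cells (difference 1.07, limma adjusted p = 0.00312), beside a difference of 1.34 for PCNA. TMPO-AS1 differed by 0.94 (adjusted p = 0.0183), beside 1.01 for TMPO. PCNA-AS1 kept its call with any 1 array left out, and TMPO-AS1 lost it without control siRNA replicate 2 (0.174), untransfected replicate 1 (0.0566) or untransfected replicate 2 (0.132). Of 14 small nuclear RNA probe sets 5 were higher, SNAR-F (1.08), SNAR-H (0.94), SNAR-D (0.71) and 2 probe sets of SNAR-C1 with the same values (0.53), near-identical copies whose values cannot be assigned to 1 gene with certainty. SNAR-F, SNAR-H and SNAR-C1 lost their call without any 1 of the 4 arrays (adjusted p from 0.0919 to 0.233), and SNAR-D without any but untransfected replicate 1 (0.0912 to 0.127).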
